A study of Rattus norvegicus with 24 samples.

Results

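The genes described here encode the auxiliary enzymes of fatty acid oxidation and the peroxisomal branch of the pathway. There are 9 of them (*Eci1*, *Decr1*, *Eci2*, *Ech1*, *Abcd3*, *Ehhadh*, *Hsd17b4*, *Crot* and *Pex11a*) among 22093 genes named on the array. They were chosen by symbol for their known roles, with earlier results of these data already known. All 9 were found, each with 1 transcript cluster, the unit into which the probes of a gene are condensed. RNA was measured in the liver of male Wistar (RccHan:WIST) rats on the Affymetrix Rat Transcriptome Array 1.0, with 1 array per animal. The treated animals ate food with 400 ppm rotenone, which blocks complex I in mitochondria, for 1, 3 or 14 days, and the control animals received untreated food for the same times. Rats were 7 to 8 weeks old at assignment, 5 were assigned to each group, and 4 of each of the 6 groups were arrayed, 24 in all. The labels call them biological replicates. Whole liver was sampled, so that fewer cells of a type and less RNA per cell cannot be told apart.

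Saturated fatty acids pass through the core spiral of beta-oxidation, in mitochondria for medium and long chains and in peroxisomes for very long and branched chains. Double bonds of unsaturated fatty acids stand in places or geometries that the core enzymes cannot handle, and auxiliary isomerases and a reductase move or remove them. In peroxisomes, acyl-CoAs enter through transporters of the membrane, the bifunctional enzymes carry out the hydration and dehydrogenation steps, and shortened chains leave as carnitine esters for the mitochondria. In rodent liver many of these genes are known targets of PPAR alpha, a nuclear receptor activated by fatty acids during fasting and by fibrate drugs.

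Rotenone was accompanied by higher levels of most of these genes on the first day and of a smaller number later. On day 1, 7 of the 9 genes were higher in rotenone livers than in control livers by limma at a Benjamini-Hochberg adjusted p of 0.05, against 2.48% of all 68842 transcript clusters that were called higher. On day 3 the number was 3 of 9, against 1.71% of all clusters, and on day 14 it was again 3 of 9, against 2.68%. The genes higher on days 3 and 14 were the same ones, *Ech1*, *Decr1* and *Eci1*. No member was called lower on any day by limma, where 2.17%, 1.56% and 1.83% of clusters were called lower on days 1, 3 and 14, and none had a fall with an unadjusted p under 0.05. The median log2 difference over the 9 members was 1.47 on day 1, 0.51 on day 3 and 0.30 on day 14, and the medians over all clusters were −0.07, 0.02 and −0.01. All 4 rotenone livers stood above all 4 control livers for 7 members on day 1, a pattern that 4.77% of all clusters showed, and for 4 members on each of days 3 (4.98%) and 14 (5.11%), namely *Eci1*, *Decr1*, *Ech1* and *Hsd17b4*.

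**Figure D1:**
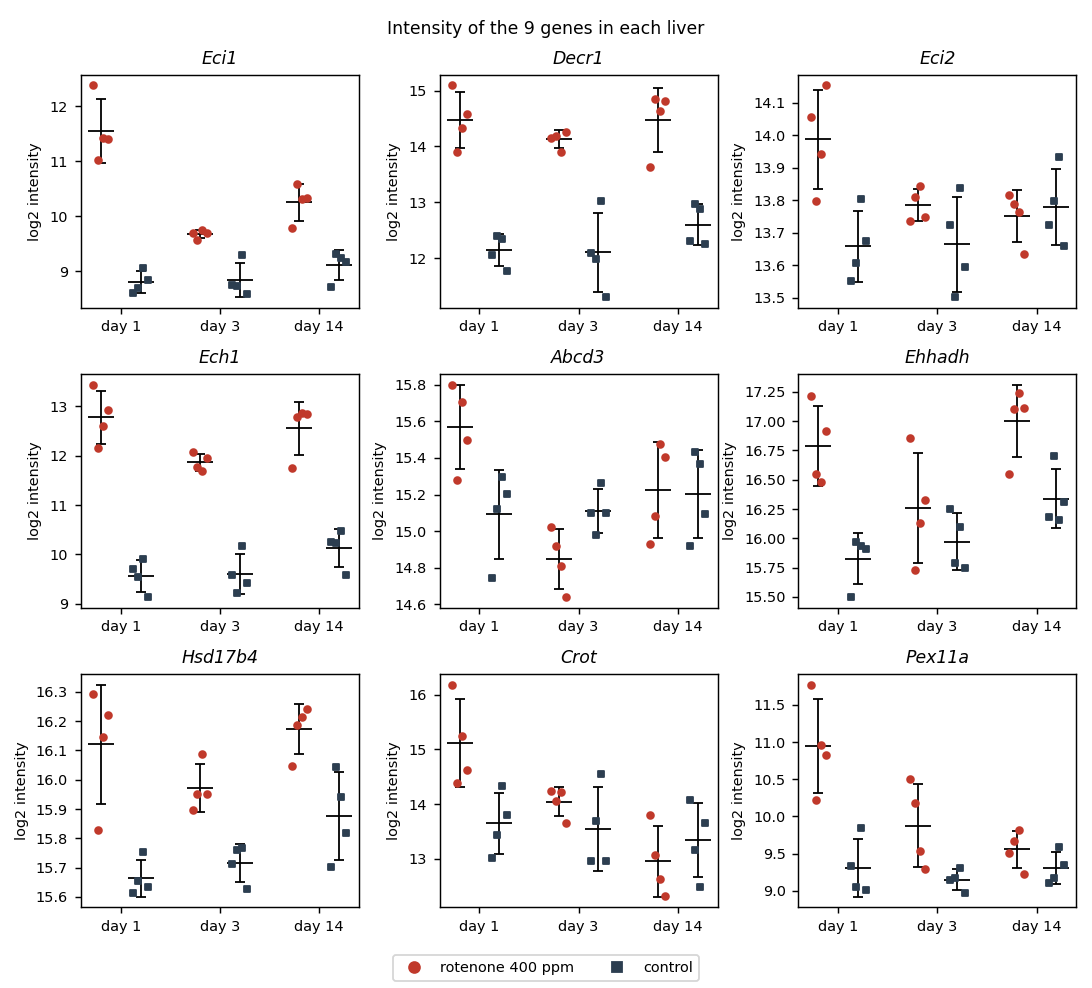
Log2 intensity of each of the 9 genes (vertical axis, own scale per panel) in each liver on days 1, 3 and 14, with rotenone livers as red circles left of control livers as dark squares. Horizontal bars are means and error bars are SD over 4 livers. *Ech1*, *Decr1* and *Eci1* show no overlap between rotenone and control livers on any day, and *Crot* overlaps on days 3 and 14.

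The 9 genes had unlike intensities on the array. Averaged over the 24 arrays, *Ehhadh* stood at percentile 99.1 of all genes, *Hsd17b4* at 98.9, *Abcd3* at 98.4, *Crot* and *Eci2* at 97.2, *Decr1* at 96.7 and *Ech1* at 91.8. *Eci1* and *Pex11a* were the dimmest, both at percentile 86.1. The readings were set against the negative control probe sets of the array. A log2 intensity of 10.43, which 2.5% of the negative control readings exceeded, was taken as the limit of background after the values had been seen. The median negative control reading was 5.24, so a reading below the limit may still exceed most negative controls. All 24 readings of each of *Decr1*, *Eci2*, *Abcd3*, *Ehhadh*, *Hsd17b4* and *Crot* lay above it. All 12 control readings of *Eci1* and of *Pex11a* lay below it, and so did 11 of the 12 control readings of *Ech1*, the exception being a liver of day 14. For these 3 genes a difference is one between readings. Where a whole control group lay below the limit and the whole rotenone group above it, the fold is given as a lower bound. The bound is the mean of the rotenone livers over the limit, a point estimate without an interval. Probe intensities of different genes are not on one scale of molecules, so these ranks describe the signal only.

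*Eci1* encodes the mitochondrial enoyl-CoA isomerase, which shifts a double bond from an odd-numbered position to the place where the core enzymes can take it up. Its log2 intensity was 12.38, 11.02, 11.41 and 11.41 in the 4 rotenone livers of day 1, against 8.60, 8.70, 9.07 and 8.85 in the control livers. It was 9.69, 9.58, 9.76 and 9.69 in rotenone livers of day 3, against 8.75, 8.73, 9.30 and 8.59 in control livers. On day 14 it was 9.79, 10.59, 10.32 and 10.33 in rotenone livers, against 8.71, 9.32, 9.24 and 9.16 in control livers. Each rotenone group lay wholly above its controls, and the 3 rotenone groups did not overlap with each other either. The difference was 2.75 ± 0.22 on day 1 (log2 ± SE, adjusted p = 3.27e-07), 0.84 ± 0.22 on day 3 (adjusted p = 0.0385) and 1.15 ± 0.22 on day 14 (adjusted p = 0.00308). On day 1 all 4 rotenone livers and no control liver were above the background limit, a change of at least 2.19-fold. On day 3 all 8 readings were below the limit and on day 14 only 1, of a rotenone liver, was above it, so that no fold is given for those days. The call of day 3 was lost in 8 of 33 alternative fits, 7 of them the omission of 1 array, with an adjusted p of up to 0.127 when control replicate 4 of day 3 was left out. Ordered by level, *Eci1* was highest in rotenone livers of day 1, followed by those of day 14 and then day 3, and the control groups stood below without differing from each other beyond their spread.

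*Eci2* encodes a second enoyl-CoA isomerase, with a signal for import into peroxisomes. Its differences were small beside those of *Eci1*. Rotenone livers of day 1 had log2 intensities of 14.05, 13.80, 13.94 and 14.15, against 13.55, 13.61, 13.80 and 13.67 in control livers, so that 1 rotenone liver and 1 control liver met at 13.80. The difference of 0.33 ± 0.10 (95% interval 0.13 to 0.53) missed the threshold at an adjusted p of 0.0544, and it passed in 7 of 33 alternatives. On day 3 the difference was 0.12 ± 0.10 (adjusted p = 0.661) and on day 14 it was −0.03 ± 0.10 (95% interval −0.23 to 0.17, adjusted p = 0.944). All neighbouring groups overlapped in their ranges.

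The promoters of these paired isomerases are shown because the encoded enzymes catalyse the same kind of reaction and the genes differed in response. Both runs are the 250 bases upstream of the RefSeq transcription start in assembly GRCr8, plus strand, for *Eci1* at chr10:13961000-13961249 and for *Eci2* at chr17:30075516-30075765. Capitals mark the hexamer AGGTCA or its reverse complement TGACCT, the core sequence that PPAR alpha and its partner RXR alpha recognise as a repeat.
Eci1: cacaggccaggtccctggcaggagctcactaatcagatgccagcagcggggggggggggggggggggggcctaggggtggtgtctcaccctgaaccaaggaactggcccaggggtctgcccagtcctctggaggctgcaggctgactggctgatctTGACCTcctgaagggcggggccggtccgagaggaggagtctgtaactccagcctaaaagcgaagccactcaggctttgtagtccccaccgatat
Eci2: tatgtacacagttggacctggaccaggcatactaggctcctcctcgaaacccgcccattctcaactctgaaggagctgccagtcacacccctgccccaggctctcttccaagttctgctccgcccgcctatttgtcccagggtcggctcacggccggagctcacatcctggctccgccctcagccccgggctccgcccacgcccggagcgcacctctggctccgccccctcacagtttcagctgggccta
In *Eci1* a TGACCT begins 94 bases before the start. In *Eci2* the stretch before the start holds none, and 1 copy lies 17 bases after it, outside the printed stretch. Of all promoters searched, 16.2% held at least 1 copy, and a role of the hexamer in the difference between these genes was not tested.

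Averaged over the 3 days, the difference of *Eci1* between rotenone and control livers exceeded that of *Eci2* by 1.44 ± 0.12 on the log2 scale (SE). This value and those of 3 other pairs were compared by an exact two-sided permutation test of the livers within days, and the pairs were chosen by reaction after the values were seen. For the isomerases the exact p was 5.831e-06, the smallest that the 343000 permutations can give, and 1.166e-05 after adjustment over the 4 pairs. With readings below the background limit set to it, an alternative chosen after the data were seen, the excess was 0.25 ± 0.10 (exact p = 0.03554, not adjusted). By day it was 0.80 on day 1, −0.12 on day 3 and 0.07 on day 14. On day 3 every *Eci1* reading was replaced by the limit, so −0.12 is only the difference of *Eci2* with its sign turned. On day 14 all *Eci1* readings but 1 were replaced. For these days, and so for the average, this alternative cannot show whether *Eci1* differed more than *Eci2*. The size of the excess as read rests on *Eci1* readings below the background limit. As read, the gap was 2.43 ± 0.26 on day 1, 0.72 ± 0.12 on day 3 and 1.18 ± 0.22 on day 14. The log2 intensity of *Eci1* minus that of *Eci2* was negative in every liver. It was less so in rotenone livers, without overlap between the rotenone and control groups of any day.

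*Decr1* encodes the mitochondrial dienoyl-CoA reductase, which removes 1 of a pair of neighbouring double bonds. Log2 intensities on day 1 were 15.10, 13.89, 14.34 and 14.59 in rotenone livers, against 12.06, 12.39, 12.34 and 11.77 in control livers. On day 3 they were 14.16, 14.19, 13.90 and 14.26 in rotenone livers, against 12.09, 11.99, 13.02 and 11.30 in control livers. On day 14 rotenone livers had 13.63, 14.85, 14.64 and 14.81, against 12.31, 12.96, 12.87 and 12.25 in control livers. The groups were apart on every day, and the lowest rotenone liver of day 14 still lay 0.67 above the highest control liver. The difference was 2.34 ± 0.31 on day 1 (5.06-fold, adjusted p = 6.19e-05), 2.03 ± 0.31 on day 3 (4.08-fold, adjusted p = 0.000343) and 1.88 ± 0.31 on day 14 (3.69-fold, adjusted p = 0.000615). The 3 rotenone groups overlapped with each other, as did the 3 control groups.

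The peroxisomal counterpart, *Decr2*, is not among the 9 genes. It had log2 differences of 1.18, 0.85 and 0.47 on days 1, 3 and 14, and the difference of *Decr1* exceeded that of *Decr2* by 1.25 ± 0.15 on average over the days (exact p = 5.831e-06, adjusted 1.166e-05). The excess of *Decr1* over *Decr2* per liver was apart between rotenone and control groups on each day.

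*Ech1* encodes the dienoyl-CoA isomerase, an enzyme found in mitochondria and peroxisomes that rearranges 2 double bonds at once. Its readings differed by more than those of the other 8 genes on each day, with most control readings below the background limit. Log2 intensities on day 1 were 13.44, 12.15, 12.61 and 12.92 in rotenone livers, against 9.70, 9.53, 9.90 and 9.14 in control livers. On day 3 they were 12.07, 11.76, 11.68 and 11.94 in rotenone livers, against 9.59, 9.22, 10.18 and 9.43 in control livers. On day 14 they were 11.76, 12.78, 12.86 and 12.84 in rotenone livers, against 10.25, 10.22, 10.48 and 9.58 in control livers. The lowest rotenone liver of any day, at 11.68, was above the highest control liver of any day, at 10.48. The difference was 3.21 ± 0.27 on day 1 (at least 5.10-fold, adjusted p = 4.21e-07), 2.26 ± 0.27 on day 3 (at least 2.71-fold, adjusted p = 2.75e-05) and 2.43 ± 0.27 on day 14 (5.37-fold with 1 of 4 control livers above the background limit, adjusted p = 8.61e-06). All 12 rotenone readings were above that limit. The bound of day 3 was below the 4.08-fold of *Decr1*, so the order of these genes is one of readings. By level, rotenone livers of days 1 and 14 overlapped, as did those of days 14 and 3, and the control groups overlapped with each other.

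**Figure D2:**
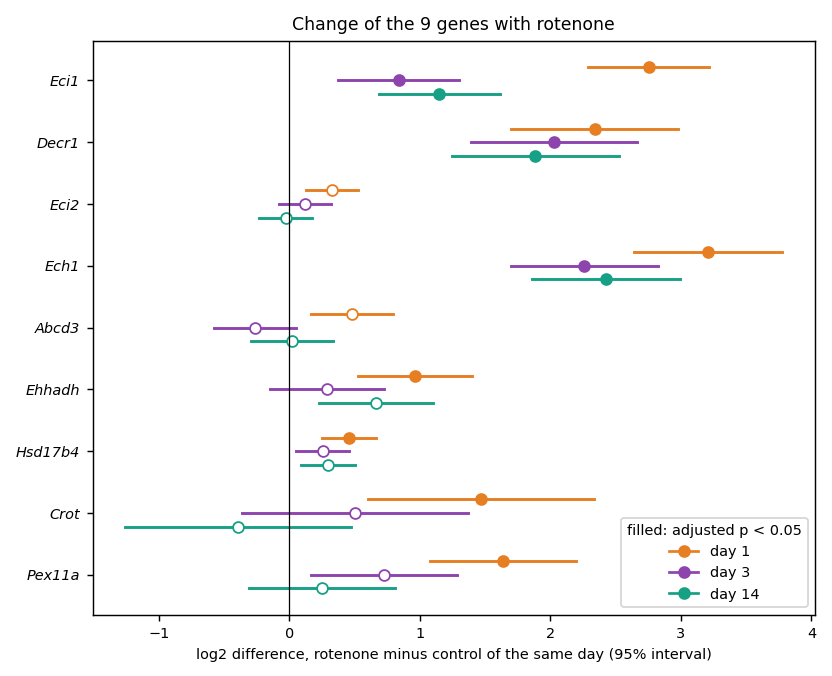
Log2 difference between rotenone and control livers of the same day (horizontal axis) for each of the 9 genes, with 95% intervals of the 6-group model as lines, in order of day 1, 3 and 14 from above. Filled points have an adjusted p below 0.05. *Ech1* and *Decr1* lie above 1.8 on all 3 days, and the intervals of *Eci2*, *Abcd3*, *Crot* and *Pex11a* on day 14 span 0.

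Among the peroxisomal genes, *Abcd3* encodes a transporter of the peroxisomal membrane that brings branched-chain and bile acid precursor acyl-CoAs inside. Its log2 intensities were 15.28 to 15.80 in rotenone livers of day 1, against 14.74 to 15.29 in control livers. On day 3 they were 14.64 to 15.02 in rotenone livers, against 14.98 to 15.27 in control livers, and on day 14 they were 14.93 to 15.48 in rotenone livers, against 14.92 to 15.43 in control livers. The groups overlapped on every day. No difference passed the threshold, with 0.48 ± 0.15 on day 1 (95% interval 0.16 to 0.79, adjusted p = 0.0764), −0.26 ± 0.15 on day 3 (adjusted p = 0.478) and 0.02 ± 0.15 on day 14 (95% interval −0.29 to 0.33, adjusted p = 0.976). The difference of day 1 passed in 3 of 33 alternatives. Rotenone livers of day 3 had the lowest mean of the 6 groups and rotenone livers of day 1 the highest.

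*Ehhadh* and *Hsd17b4* encode the L- and D-bifunctional enzymes, which hydrate and dehydrogenate acyl-CoAs through intermediates of opposite handedness. *Ehhadh* handles dicarboxylic and straight chains in the main, and *Hsd17b4* is needed for branched chains and bile acid precursors. For *Ehhadh* the log2 intensities of day 1 were 17.22, 16.55, 16.48 and 16.91 in rotenone livers, against 15.50, 15.97, 15.93 and 15.91 in control livers. The groups were apart, with a difference of 0.96 ± 0.21 (1.95-fold, adjusted p = 0.00775). On day 3 rotenone livers had 16.85, 15.73, 16.13 and 16.33, against 16.25, 15.79, 16.10 and 15.75 in control livers, and on day 14 rotenone livers had 16.55, 17.11, 17.24 and 17.11, against 16.18, 16.70, 16.16 and 16.31 in control livers. The groups overlapped on both days, with differences of 0.29 ± 0.21 on day 3 (adjusted p = 0.615) and 0.66 ± 0.21 on day 14 (95% interval 0.23 to 1.10, adjusted p = 0.0790). On day 14 the overlap was between the lowest rotenone liver, replicate 1, and the highest control liver, replicate 2. Without that rotenone array the difference was 0.82 and passed at an adjusted p of 0.0294. The difference of day 14 did not pass in 29 of 33 alternatives, with an adjusted p of up to 0.191. The lowest of the 6 group means was that of control livers of day 1, the highest that of rotenone livers of day 14, and all neighbours in the order overlapped.

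*Hsd17b4* had smaller differences and little spread. On day 1 its log2 intensities were 16.29, 15.83, 16.14 and 16.22 in rotenone livers, against 15.61, 15.65, 15.75 and 15.63 in control livers, and the difference of 0.46 ± 0.10 (1.37-fold) passed at an adjusted p of 0.00672, although with only the 8 arrays of that day it was 0.0999. On day 3 they were 15.90, 15.95, 16.09 and 15.95 in rotenone livers, against 15.71, 15.76, 15.77 and 15.63 in control livers. On day 14 they were 16.05, 16.19, 16.22 and 16.24 in rotenone livers, against 15.70, 16.04, 15.94 and 15.82 in control livers. All rotenone livers stood above all control livers on each day, on day 14 by a gap of 0.00402. The differences of 0.26 ± 0.10 on day 3 (95% interval 0.05 to 0.46, adjusted p = 0.215) and 0.30 ± 0.10 on day 14 (95% interval 0.09 to 0.50, adjusted p = 0.0937) did not pass the test over all clusters. With quantile normalization between arrays, *Hsd17b4* and *Ehhadh* both passed on day 14 (0.58 with an adjusted p of 0.0119, and 0.86 with an adjusted p of 0.0140), which brought the members called higher on that day to 5.

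The 250 bases upstream of both bifunctional enzymes are given because they are the other pair of members with related reactions. They are from RefSeq in GRCr8, plus strand, for *Ehhadh* at chr11:92746159-92746408 and for *Hsd17b4* at chr18:45515177-45515426, with the same hexamer in capitals.
Ehhadh: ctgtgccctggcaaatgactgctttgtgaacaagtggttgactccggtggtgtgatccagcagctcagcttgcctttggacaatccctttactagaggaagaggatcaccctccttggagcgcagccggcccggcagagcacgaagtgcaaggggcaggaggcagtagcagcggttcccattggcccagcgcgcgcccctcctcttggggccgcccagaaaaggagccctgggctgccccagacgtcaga
Hsd17b4: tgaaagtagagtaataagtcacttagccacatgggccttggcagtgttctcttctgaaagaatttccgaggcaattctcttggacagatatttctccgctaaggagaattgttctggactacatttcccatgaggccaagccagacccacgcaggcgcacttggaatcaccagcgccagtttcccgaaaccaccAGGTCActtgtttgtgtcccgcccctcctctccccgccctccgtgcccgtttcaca
*Hsd17b4* holds an AGGTCA that begins 56 bases before its start, and *Ehhadh* holds none in the window. Averaged over the days, the difference of *Ehhadh* exceeded that of *Hsd17b4* by 0.30 ± 0.12 (exact p = 0.0205, also 0.0205 after adjustment over the 4 pairs), with gaps of 0.50 ± 0.16 on day 1, 0.03 ± 0.28 on day 3 and 0.37 ± 0.15 on day 14.

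Of the 9 members, 7 had an entry in the RefSeq promoter table, *Decr1* and *Ech1* having none. In windows from 250 bases before to 50 bases after the start, searched on both strands, 3 of the 7 held the hexamer (*Eci1*, *Eci2* and *Hsd17b4*), and 16.2% of all 33465 promoters in the table held at least 1. For 2 copies of the hexamer separated by 1 base, the closest match had 3 mismatches in *Ehhadh*, 4 in *Eci1*, *Eci2*, *Abcd3* and *Hsd17b4*, and 5 in *Crot* and *Pex11a*. A match within 3 mismatches was present in 24.9% of all promoters and within 4 mismatches in 80.3%. Whether any of these matches bears on the differences of the members was not tested.

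*Crot* encodes the carnitine octanoyltransferase of peroxisomes, which makes carnitine esters of shortened medium chains for export. Log2 intensities on day 1 were 16.19, 14.38, 15.25 and 14.63 in rotenone livers, against 13.02, 13.44, 14.34 and 13.80 in control livers. On day 3 they were 14.24, 14.06, 14.22 and 13.66 in rotenone livers, against 12.95, 13.70, 14.56 and 12.95 in control livers. On day 14 they were 13.80, 13.06, 12.63 and 12.31 in rotenone livers, against 14.07, 13.16, 12.49 and 13.65 in control livers. The groups of day 1 were apart by 0.0454 only, and those of days 3 and 14 overlapped. The difference was 1.47 ± 0.42 on day 1 (2.76-fold, adjusted p = 0.0446), 0.51 ± 0.42 on day 3 (adjusted p = 0.674) and −0.39 ± 0.42 on day 14 (95% interval −1.26 to 0.48, adjusted p = 0.747). The call of day 1 was lost in 14 of 33 alternatives, with a difference of 1.11 (adjusted p = 0.150) without rotenone replicate 1 and of 1.25 (adjusted p = 0.158) without control replicate 1 of that day. *Crot* had the widest spread of the 9 genes among control livers, with an SD of 0.56 on day 1, 0.77 on day 3 and 0.68 on day 14, and rotenone livers of day 14 had the lowest mean of the 6 groups.

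The enzyme for acetyl and short-chain carnitine esters, *Crat*, is the counterpart of *Crot* in the same export step. It lies outside the 9 genes. Its readings ran from 8.54 to 9.74 in rotenone livers and from 6.59 to 7.93 in control livers, all 24 below the background limit, and its difference is therefore not set against that of *Crot*, although this was the fourth of the pairs tested.

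**Figure D3:**
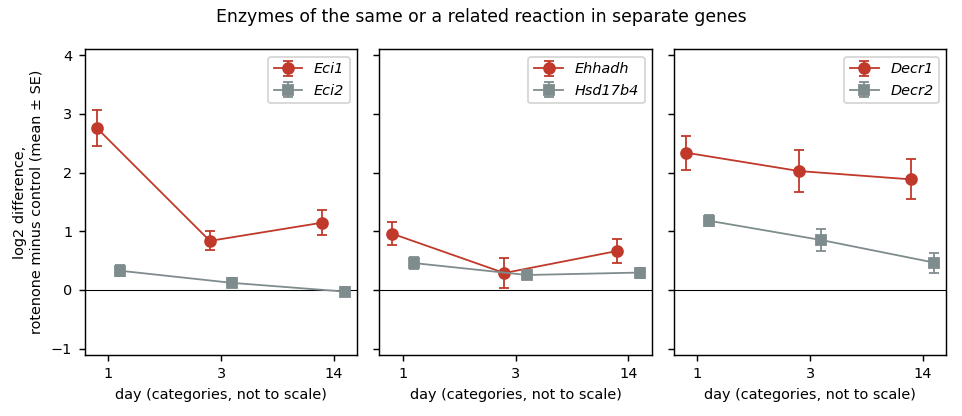
Log2 difference between rotenone and control livers (vertical axis, mean ± SE from the spread of 4 livers in each group) on days 1, 3 and 14 for 3 pairs of genes with the same or a related reaction. *Eci1* lies above *Eci2* and *Decr1* above *Decr2* on each day, the control readings of *Eci1* being below the background limit and those of *Decr2* near it.

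*Pex11a* encodes a membrane protein that elongates peroxisomes before they divide, and its gene is known to be inducible by peroxisome proliferators in rodents. On day 1 its log2 intensities were 11.77, 10.23, 10.96 and 10.83 in rotenone livers, against 9.33, 9.05, 9.85 and 9.01 in control livers. The groups were apart, and the difference was 1.64 ± 0.27 (adjusted p = 0.000567). Of the rotenone livers 3 of 4, and no control liver, were above the background limit. The mean of the rotenone livers was 1.44-fold over the limit. The rotenone reading of 10.23, itself below the limit, was taken as read, so this is not a strict lower bound. On day 3 rotenone livers had 10.50, 10.18, 9.53 and 9.29, against 9.15, 9.18, 9.31 and 8.97 in control livers. On day 14 rotenone livers had 9.50, 9.67, 9.82 and 9.23, against 9.11, 9.18, 9.59 and 9.34 in control livers. Both later days had overlap, on day 3 through a single rotenone liver, and the differences of 0.72 ± 0.27 (95% interval 0.17 to 1.28, adjusted p = 0.184) and 0.25 ± 0.27 (adjusted p = 0.745) did not pass. Of the readings of these days only 1, of a rotenone liver of day 3, was above the limit. The 3 rotenone groups stood above the 3 control groups in the order of means, from day 1 to day 3 to day 14, with overlap between every pair of neighbours.

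The differences between days were tested as such. For *Eci1* the effect of rotenone on day 3 minus that on day 1 was −1.92 ± 0.32 on the log2 scale (adjusted p = 0.0130), and it was the only 1 of the 9 members that passed, against 0.103% of all clusters. On day 14 the effect on *Eci1* minus that on day 1 was −1.61 ± 0.32 (adjusted p = 0.0137), again the only member, against 0.93% of clusters. With only the 16 arrays of these 2 days in the fit, the adjusted p of this difference was 0.0569. The F test over all 3 days gave the same member (adjusted p = 0.00731), where 0.598% of clusters passed. Of the 6 groups of *Eci1*, rotenone livers of day 1 alone were wholly above the background limit, so the sizes of these differences are those of readings. All 9 differences from day 1 to day 3 were negative, between −1.92 and −0.20, and all 9 from day 1 to day 14, between −1.86 and −0.16. Both sets of differences share the arrays of day 1. Besides *Eci1*, the members with an unadjusted p under 0.05 were *Abcd3*, *Ech1*, *Pex11a* and *Ehhadh* from day 1 to day 3. From day 1 to day 14 they were *Pex11a*, *Crot*, *Eci2* and *Abcd3*. The share of all clusters under that level was not counted for these differences. *Pex11a* (−1.39 ± 0.38, adjusted p = 0.0890) and *Crot* (−1.86 ± 0.59, adjusted p = 0.169) had sizeable values from day 1 to day 14 that did not pass, and *Decr1* had −0.45 ± 0.44 (95% interval −1.36 to 0.45, adjusted p = 0.772). Between day 3 and day 14 no member passed, against 0.0116% of clusters, and none had an unadjusted p under 0.05. *Eci1* had 0.31 ± 0.32.

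The same question was put to rotenone and control livers on their own. Among rotenone livers, *Eci1* was lower on day 3 than on day 1, with a difference of −1.88 ± 0.22 (adjusted p = 0.000107) and so was *Abcd3*, with −0.72 ± 0.15 (adjusted p = 0.0229), 2 of 9 members against 0.322% of clusters called lower. The call of *Abcd3* was lost with quantile normalization (−0.62, adjusted p = 0.0755), without rotenone replicate 1 (−0.65, 0.101) or 3 (−0.68, 0.0826) of day 1 and without rotenone replicate 3 (−0.71, 0.0755) or 4 (−0.65, 0.0807) of day 3, which left *Eci1* alone. No member differed between rotenone livers of day 14 and day 3, where 0.238% of clusters did. The share of all clusters with an unadjusted p under 0.05 was not counted, and 5 members had one. Among them were *Ehhadh* at 0.74 ± 0.21 (adjusted p = 0.193) and *Crot* at −1.09 ± 0.42 (adjusted p = 0.445). In control livers no member differed between day 3 and day 1 (0.00291% of clusters) or between day 14 and day 1 (0.0726%). *Ech1* was 0.57 ± 0.27 (adjusted p = 0.887) and *Ehhadh* 0.51 ± 0.21 (adjusted p = 0.816) above day 1 in control livers of day 14. With *Hsd17b4* they were the 3 members with an unadjusted p under 0.05 from day 1 to day 14, and none had one from day 1 to day 3. Here too the share of all clusters under that level was not counted.

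Some livers ranked high or low for most of the 9 genes. Among rotenone livers of day 1, replicate 1 had the highest value for 8 of 9 members and replicate 2 the lowest for 8. Control replicate 3 was the highest for 7 members on day 1 and for 8 members on day 3, and rotenone replicate 1 of day 14 was the lowest for 6. Over the 24 arrays, Pearson's r between members ran from 0.11 for *Ehhadh* and *Crot* to 0.98 for *Decr1* and *Ech1*. After the group means were removed, it ran from 0.09 for *Ech1* and *Crot* to 0.85 for *Decr1* and *Ech1*, with 36 pairs in all. Values that involve *Crot* lay between 0.09 and 0.45. These correlations are descriptions over arrays of the same animals and carry no test.

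**Figure D4:**
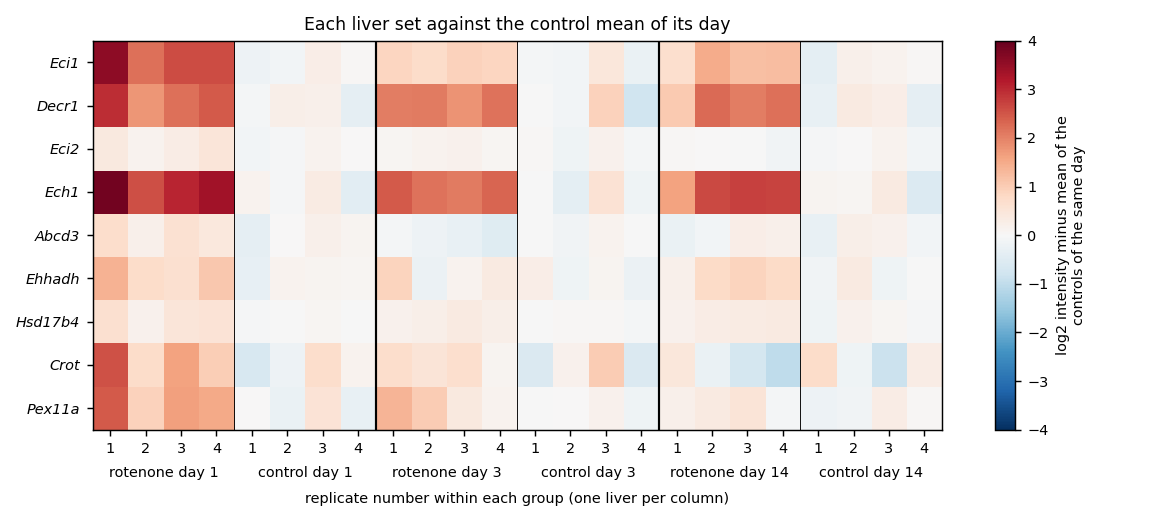
Log2 intensity of each gene (rows) in each liver (columns, replicate numbers 1 to 4 within each group) minus the mean of the control livers of the same day, red above and blue below, with rotenone groups left of control groups. Rotenone replicate 1 of day 1 is the highest of its group for 8 of 9 genes, and *Eci2*, *Abcd3* and *Hsd17b4* remain pale throughout.

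The genes most like the mean profile of the 9 members over the 24 arrays, among 11038 genes at or above the median intensity, were *Hadhb* (r = 0.96), *Acot2* (0.96), *Hadha* (0.96), *Acot4* (0.95), *Vwa8* (0.95), *Ephx2* (0.94), *Acot1* (0.93) and *Cyp4a1* (0.92). *Hadhb* and *Hadha* encode the subunits of the mitochondrial trifunctional protein, and the *Acot* genes encode acyl-CoA thioesterases that resemble each other in sequence, so that their signals may be shared. For single members, the nearest gene was *Hadhb* for *Eci1* (r = 0.98), *Pnpla7* for *Decr1* (0.97), *Slc22a5*, the carnitine importer of the cell membrane, for *Ech1* (0.99), and *Hsdl2*, a peroxisomal dehydrogenase, for *Hsd17b4* (0.93). It was *Sel1l3* for *Pex11a* (0.89), *Pank1*, a kinase at the start of coenzyme A synthesis, for *Ehhadh* (0.86), *Slc25a47* for *Eci2* (0.82), *Abhd1* for *Crot* (0.82) and *Prkacb* for *Abcd3* (0.81).

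The rest of the pathway was counted from lists of textbook members. Of 16 genes of core mitochondrial beta-oxidation found, 9 were higher and 1 was lower on day 1, 5 were higher on day 3 and 6 on day 14, with median log2 differences of 0.43, 0.29 and 0.44. *Cpt1a*, the carnitine palmitoyltransferase that admits long chains to mitochondria, was 3.29 ± 0.53 higher on day 1 (adjusted p = 0.000465), followed by *Cpt2* at 1.56 ± 0.17 and *Hadhb* at 1.42 ± 0.14. *Echs1*, the short-chain hydratase, was the gene that was lower on day 1, at −0.61 ± 0.12 (adjusted p = 0.00428).

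Of 21 other genes of peroxisomal fatty acid oxidation found, 7 were higher on day 1, 6 were higher and 1 lower on day 3, and 5 were higher and 2 lower on day 14, with medians of 0.27, 0.23 and 0.24. *Crat* was higher on all 3 days, from readings below the background limit. The thiolase gene *Acaa1b*, with 7 of 24 readings above the limit, was 1.26 ± 0.16 higher on day 14 (adjusted p = 5.27e-05), and its near-identical partner *Acaa1a* 0.95 ± 0.15 higher, although probes of such copies may not tell them apart. *Pecr*, a reductase of peroxisomal enoyl-CoAs, was lower on day 3 at −0.44 ± 0.10 and on day 14 at −0.41 ± 0.10, and *Acox3*, an acyl-CoA oxidase for branched chains, was lower on day 14 at −0.79 ± 0.14.

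Of 17 genes for peroxisome assembly and membrane proteins found, 5 were higher and 1 lower on day 1, 3 were higher and 1 lower on day 3, and 5 were higher on day 14, with medians of 0.02, 0.09 and 0.14. *Pex16*, needed for the insertion of membrane proteins, with 15 of 24 readings above the limit, was higher on each day at 1.05 ± 0.27, 1.35 ± 0.27 and 1.08 ± 0.27. *Pex5*, the receptor for import into the matrix, with all 24 readings below the limit, was lower on day 1 at −0.38 ± 0.11 and on day 3 at −0.43 ± 0.11. Of 7 genes of omega-oxidation, 2 were higher on day 1, 1 was higher and 1 lower on day 3, and 1 was lower on day 14, with *Cyp4a1*, a fatty acid hydroxylase of a gene family with close copies, 2.62 ± 0.38 higher on day 1.

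Of 10 genes for PPAR alpha and its co-regulators, 1 was higher and 1 lower on day 1, 3 were higher and 1 lower on day 3, and 1 was higher and 2 lower on day 14. *Ppara* itself, singled out after its values were seen, had 0.95 ± 0.36 on day 1 (adjusted p = 0.160), 0.76 ± 0.36 on day 3 (adjusted p = 0.362) and 0.63 ± 0.36 on day 14 (adjusted p = 0.419). *Rxra*, its partner, was 0.58 ± 0.12 higher on day 1 (adjusted p = 0.00386). *Ppargc1a*, a co-activator, was 1.31 ± 0.36 higher on day 3 (adjusted p = 0.0498) and 1.97 ± 0.36 higher on day 14 (adjusted p = 0.00191), and the related receptor gene *Ppard* was lower on all 3 days at −1.15 ± 0.18, −0.91 ± 0.18 and −1.40 ± 0.18. All readings of *Ppargc1a* and *Ppard* were below the background limit, as were 15 of 24 of *Ppara*.

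The labelled tissue was checked against markers of liver cell types. The hepatocyte markers were the brightest of the lists, with a mean log2 intensity of 17.21 to 17.26 in rotenone livers of day 1, against 17.02 to 17.19 in control livers. They were 17.07 to 17.17 in rotenone livers of day 3, against 17.10 to 17.16 in control livers, and 16.77 to 16.93 in rotenone livers of day 14, against 17.02 to 17.13 in control livers. Of 9 hepatocyte markers found, 1 was higher on day 1 and 1 lower on day 14. Both calls were of *Apoa1*, at 0.64 ± 0.18 on day 1 and −1.90 ± 0.18 on day 14. The median difference over the 9 markers was 0.03 on day 1, −0.04 on day 3 and −0.06 on day 14. Stellate cell and fibroblast markers were lower for 7 of 10 on day 3 and 6 of 10 on day 14, with a mean level of 7.91 to 8.32 in rotenone livers of day 3, against 8.98 to 9.23 in control livers. Macrophage markers were higher for 3 of 10 on day 1, with 11.10 to 11.58 in rotenone livers against 10.28 to 11.39 in control livers, and lower for 4 of 10 on day 14. Sinusoidal endothelial markers were higher for 4 of 8 on day 1, with 10.43 to 11.09 in rotenone livers against 10.12 to 10.55 in control livers. Erythroid markers were lower for 3 of 4 on each of days 3 and 14. Many of these markers had group means below the background limit. That was so for 8 to 9 of 10 stellate cell and fibroblast markers, for 4 to 5 of 8 sinusoidal endothelial markers and for 1 to 5 of 10 macrophage markers, depending on the group. It was so in every group for all 4 erythroid, all 5 cholangiocyte and all 4 neutrophil markers and for 5 to 6 of 6 lymphocyte markers, so that these lists say little about those cells. The part of these cell types in the differences of the 9 genes was not tested.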

How the data were processed

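Total RNA from liver, 1 array per animal, was measured in 24 rats. According to the methods of the study, the authors corrected the scans with Guanine Cytosine Count Normalization and Signal Space Transformation and condensed them with RMA to 1 intensity per transcript cluster; software versions and the annotation build are not given in the sources used here. The deposited intensity values were linear and were taken as log2(value + 1). Control probe sets (1738 of 70580 features, 1153 of them negative controls, of whose readings 2.5% exceeded the limit taken for background) were set aside, leaving 68842 clusters, of which 23446 carried 1 symbol, and a gene was represented by its brightest single-symbol cluster. Array medians lay between 28.9 and 35.5, and arrays of a group correlated at 0.990 to 0.996. The number of arrays limits the precision.

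A model with 6 group means was fitted to all clusters with limma 3.58.1 in R 4.3.3. Tests were two-sided, with Benjamini-Hochberg adjustment over all 68842 clusters and a threshold of 0.05, and the code was tested on simulated data. The p-values measure the spread between animals of 1 study. Labels gave the groups, and no batch was given. The 9 genes and the lists were chosen with earlier results of these data known. Every member was described; from each list, up to 3 risen and 3 fallen genes per day with the largest change past the threshold could be named. Like genes were those with the highest Pearson's r over the 24 arrays. Differences between paired enzymes were compared by exact permutation within days; these pairs were picked after the values were seen. Deviations of rotenone and control livers with the same replicate number correlated at −0.11 to 0.17, so the numbers were not taken to pair animals. Promoters came from RefSeq (GRCr8). The alternatives were other pseudocounts, a filter on dim clusters, quantile normalization, median centring, other variance priors, array weights, the replicate block, the arrays of each comparison alone, a 1.8-fold minimum, a filter after the study's methods and the omission of each array.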

Additional observations from a re-analysis of the deposited data

Results flagged for a closer look

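Among 54 sets of 4 livers (9 genes in 6 groups), 2 held a liver far from the other three by Dixon's test, where chance gives about 1 such set in 20. For *Ech1*, rotenone replicate 1 of day 14 had a log2 intensity of 11.76, and the next liver of the group had 12.78. That liver was the lowest of its group for 6 of the 9 genes, and it still exceeded every control liver for *Ech1*. For *Ehhadh*, control replicate 1 of day 1 had 15.50, and the next liver had 15.91. The effect of rotenone on *Eci1* differed between days, by −1.92 between day 3 and day 1 (adjusted p = 0.0130, limma) and by −1.61 between day 14 and day 1 (adjusted p = 0.0137). On each day all 4 rotenone livers had more *Eci1* signal than all 4 control livers, although of the 6 groups rotenone livers of day 1 alone were wholly above the negative control limit of 10.43.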

How the results depend on the processing

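In all 33 alternative limma fits, *Ech1* and *Decr1* kept their calls on every day, *Eci1* on days 1 and 14, and *Pex11a* and *Ehhadh* on day 1. The filter after the study's methods passed 3 members on day 1 (*Ech1*, *Decr1* and *Eci1*), and 484, 449 and 425 clusters on days 1, 3 and 14. With only the arrays of a comparison, 1780, 1276 and 1182 clusters were called on those days, and no member had a different effect on days 1 and 14 (0). In that setting 5 members were higher on day 1. A 1.8-fold minimum left 1022, 799 and 1028 clusters and 1 member that differed between days in rotenone livers. Restricting to clusters at or above the median gave all 9 members higher on day 1. It gave 5 members and 4878 clusters on day 14, and 2 members with a different effect on days 1 and 14. Quantile normalization gave 5 members on day 14 and 1 between rotenone livers, *Abcd3* being lost. On day 1, 53.3% of calls were higher as deposited and 71.4% with median centring, which called all 9 members higher on that day. With each array left out in turn, clusters called ran from 2266 to 3410 on day 1, from 1383 to 2386 on day 3 (1494 and 1383 without control replicates 1 and 2) and from 1802 to 4029 on day 14 (1802 and 2037 without rotenone replicates 2 and 4). Members called higher ran from 6 to 9 on day 1, 2 to 3 on day 3 and 3 to 4 on day 14. Members with a different effect on days 1 and 14 ran from 1 to 2 (2 without rotenone replicate 2 of day 1), and members that differed between days in rotenone livers from 1 to 3, with 1 in the absence of rotenone replicate 1 or 3 of day 1 or replicate 3 or 4 of day 3. Signs turned only for differences near 0 on day 14 with 1 array left out. *Eci2* ran from −0.068 to 0.024, above 0 without control replicate 3 or rotenone replicate 4, and *Abcd3* ran from −0.075 to 0.118, below 0 without control replicate 1 or 4 or rotenone replicate 3 or 4. The replicate block moved *Crot* on day 1 to an adjusted p of 0.0501 and *Eci1* on day 3 to 0.0564, and left 6, 2 and 3 members higher on days 1, 3 and 14. The cause of these shifts was not tested. A second cluster per gene could not be tried, since each member had 1. Control readings of *Eci1* and *Pex11a*, and all but 1 of *Ech1*, lay below the background limit, so their differences are between readings. Setting such readings to that limit took the excess of *Eci1* over *Eci2* to 0.25, against 1.44 as read, with every *Eci1* reading of day 3 replaced. The same setting left the excess of *Decr1* over *Decr2* at 1.26, but it does not touch *Decr2* readings just above the limit.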
